A study of Mus musculus with 6 samples.

Results

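The BCL2 family decides whether a cell keeps its mitochondria intact or dies by apoptosis, and 10 of its genes were examined here in mouse blood stem and progenitor cells. They were taken by symbol from a list of family genes, 10 of the 54532 Ensembl genes in the files, and the rule that picks them uses no measured value. Of these, 4 code for pro-survival proteins (Bcl2, Bcl2l1, Mcl1, Bcl2a1b) and 6 for pro-death proteins (the BH3-only genes Bcl2l11, Bid, Bad, Bik and Bmf, and the effector gene Bak1). RNA came from bone marrow LSK cells, a gate on lineage-negative, Sca-1-positive and Kit-positive cells in which stem cells are enriched. All 6 libraries carried the genotype Phf6fl-R274X/Y, that is, males whose single X-linked Phf6 gene is this allele, and the labels give no age. In 3 libraries (R274X libraries) the allele was combined with Vav1-Cre, a Cre driven in blood cells, and in 3 (controls) it was present without Cre. An effect of Cre itself therefore cannot be told apart from an effect of the allele. Whether each library stands for its own animal is not in the labels, and p-values rest on library-to-library spread that may be only technical.

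Pro-survival members hold the effector proteins BAK and BAX in check at the mitochondrial outer membrane. BH3-only proteins carry the signal to die: they bind the pro-survival members through a short helix, the BH3 domain, and some also act directly on the effectors. Blood stem cells are known to depend strongly on MCL1, while BCL-xL, the product of Bcl2l1, is best known for keeping maturing red cells and platelets alive.

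The feature that ties the family together can be read in the genes themselves. In the reference transcripts of 9 of the 10 members, exactly 1 place in the coding sequence matched a leucine codon, any 3 codons, a codon for glycine, alanine or serine and an aspartate codon, which is the core of the BH3 domain. The stretches of 16 codons around it are shown because BH3-only proteins bind the pro-survival members through this domain. They are from GENCODE release M21 (GRCm38, 5′ to 3′), with the leucine codon and the last pair of matched codons in capitals.
Bcl2, chr1:106712566-106712613, minus strand: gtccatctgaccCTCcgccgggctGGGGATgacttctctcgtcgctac
Bcl2l1, chr2:152829688-152829735, minus strand: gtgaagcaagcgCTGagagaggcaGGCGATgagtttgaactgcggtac
Mcl1, chr3:95659424-95659471, plus strand: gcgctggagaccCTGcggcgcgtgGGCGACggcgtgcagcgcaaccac
Bcl2l11, chr2:128147138-128147185, plus strand: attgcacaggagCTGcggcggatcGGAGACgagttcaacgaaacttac
Bid, chr6:120897280-120897327, minus strand: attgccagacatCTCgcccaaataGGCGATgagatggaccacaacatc
Bad, chr19:6950780-6950827, plus strand: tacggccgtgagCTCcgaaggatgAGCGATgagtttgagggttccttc
Bik, chr15:83543072-83543119, plus strand: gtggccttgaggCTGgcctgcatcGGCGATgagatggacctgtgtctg
Bmf, chr2:118545091-118545138, minus strand: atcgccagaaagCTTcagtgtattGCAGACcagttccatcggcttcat
Bak1, chr17:27022522-27022569, minus strand: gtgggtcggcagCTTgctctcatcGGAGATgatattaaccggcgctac
Bad has a serine codon and Bmf an alanine codon where the other 7 genes have glycine. Bcl2a1b had no match to this pattern.

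Bcl2a1b belongs to a cluster of near-identical copies on chromosome 9, so its reads can be assigned wrongly. Over 516 coding bases its reference transcript differed from that of Bcl2a1a at 11 positions and from that of Bcl2a1d at 6, an identity of 97.9% and 98.8%. Of its 768 windows of 50 bases, 57.6% occurred unchanged in at least 1 of these copies. The first 60 coding bases are shown with each base that differs from Bcl2a1b in capitals.
Bcl2a1b, chr9:89199360-89199419, plus strand: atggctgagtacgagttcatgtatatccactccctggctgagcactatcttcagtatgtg
Bcl2a1a, chr9:88957051-88957110, plus strand: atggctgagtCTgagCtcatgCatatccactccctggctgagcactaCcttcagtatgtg
Bcl2a1d, chr9:88731660-88731719, minus strand: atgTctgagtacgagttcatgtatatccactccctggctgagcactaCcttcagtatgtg
For this reason the 3 copies are also given as a sum.

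The groups differed in the RNA of several sets of cell type markers. The RNA of the targeted gene itself was lower with Cre: Phf6 averaged 9.01 ± 1.08 CPM in R274X libraries and 31.6 ± 1.98 CPM in controls (CPM, read counts scaled to a library of standard size after TMM normalization; SD, n = 3 each). Kit and Ly6a, which define the gate, were present in all libraries at 84.5 CPM or more and 135.9 CPM or more. Library totals ran from 15406314 to 16896472 counts in R274X libraries and from 17200917 to 18106065 in controls. The summed level of 13 B cell markers was 1506.5 to 3008.3 CPM in R274X libraries and 381.5 to 846.3 CPM in controls. Of these markers 7 rose and 6 did not pass. Among the latter, Cd72 and Fcer2a had log2 fold changes of 0.08 and 0.05 (edgeR adjusted p of 0.669 and 0.958). The others, Cd79a, Ebf1, Vpreb1 and Igll1, had 2.32, 1.95, 2.35 and 2.22, and their groups did not overlap. They missed the threshold more narrowly (edgeR adjusted p of 0.0677, 0.0902, 0.0539 and 0.058). Vpreb1 and Igll1, genes of early B cells, held 644.2 and 811.3 of the 3008.3 CPM in R274X 1. For 10 macrophage markers the sums were 1255.8 to 2597.4 CPM and 292.5 to 586.6 CPM, and for 8 plasma cell markers 2061.1 to 4675.8 CPM and 307.9 to 881.5 CPM, in R274X libraries and controls. Of the macrophage markers 6 rose and 4 did not pass, and of the plasma cell markers 5 rose and 3 did not pass. Jchain, which did not pass (edgeR adjusted p = 0.0813), held 3717.4 of the 4675.8 CPM in R274X 2. Immunoglobulin genes held 6.85%, 7.95% and 4.45% of counts in R274X libraries, against 0.65%, 0.29% and 1.18% in controls. Dendritic cell markers summed to 614.7 to 833.1 CPM in R274X libraries and 360.1 to 446.5 CPM in controls, and erythroid markers to 1948.5 to 3100.4 CPM and 1220.0 to 1517.0 CPM in R274X libraries and controls. Of 6 dendritic cell markers 5 rose and 1 did not pass. Of 7 erythroid markers 2 rose (Hbb-bs and Alas2), 1 fell (Car2) and 4 did not pass. The globin genes Hbb-bs and Hba-a1 held 1370.7 and 1306.2 of the 3100.4 CPM in R274X 1. Of 10 T and NK cell markers 7 rose (Cd3e, Cd3g, Cd3d, Cd4, Cd8a, Klrb1c and Gzma), 1 fell and 2 did not pass, with a median log2 fold change of 0.97. Their sum was nevertheless lower, at 184.4 to 220.8 CPM in R274X libraries and 228.0 to 234.3 CPM in controls, since it is dominated by Nkg7, which fell (88.4 ± 13.3 CPM in R274X libraries and 151.0 ± 12.6 CPM in controls; SD, n = 3 each). The 9 neutrophil markers overlapped between the groups (13918.7 to 36484.3 CPM in R274X libraries and 18226.7 to 30731.9 CPM in controls), and no marker of these lists was at 0 in all libraries. Of 63 lineage markers in 7 lists, which hold early as well as mature genes, 32 rose and 2 fell. Of 8 stem and progenitor genes, 7 fell while Ly6a rose. In bulk samples, fewer cells of a type and less RNA per cell cannot be told apart. The part of these cell types in the results below was not tested.

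Across the family, 4 of the 10 members rose in R274X libraries and none fell. These were Bcl2l1 and Bcl2a1b among the pro-survival genes and Bcl2l11 and Bmf among the BH3-only genes. All 10 were tested in a fit over 14608 genes, of which 17.9% passed an edgeR adjusted p of 0.05, 10.1% as higher and 7.89% as lower. Bcl2a1b had at least 10 counts in R274X libraries alone, so it could pass the filter on low counts only through the group in which it was higher. The median log2 fold change was 0.32 over the members and -0.02 over all tested genes. For 5 members every R274X library lay above every control and for none below, whereas 37.2% of all tested genes were separated in either direction and 18.9% with R274X higher. The calls depended on single libraries: the number that rose was 3 without R274X 1, 1 without R274X 2, 4 without R274X 3, 2 without control 1, 1 without control 2 and 3 without control 3. Bcl2l1 was called under each of these.

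**Figure D1:**
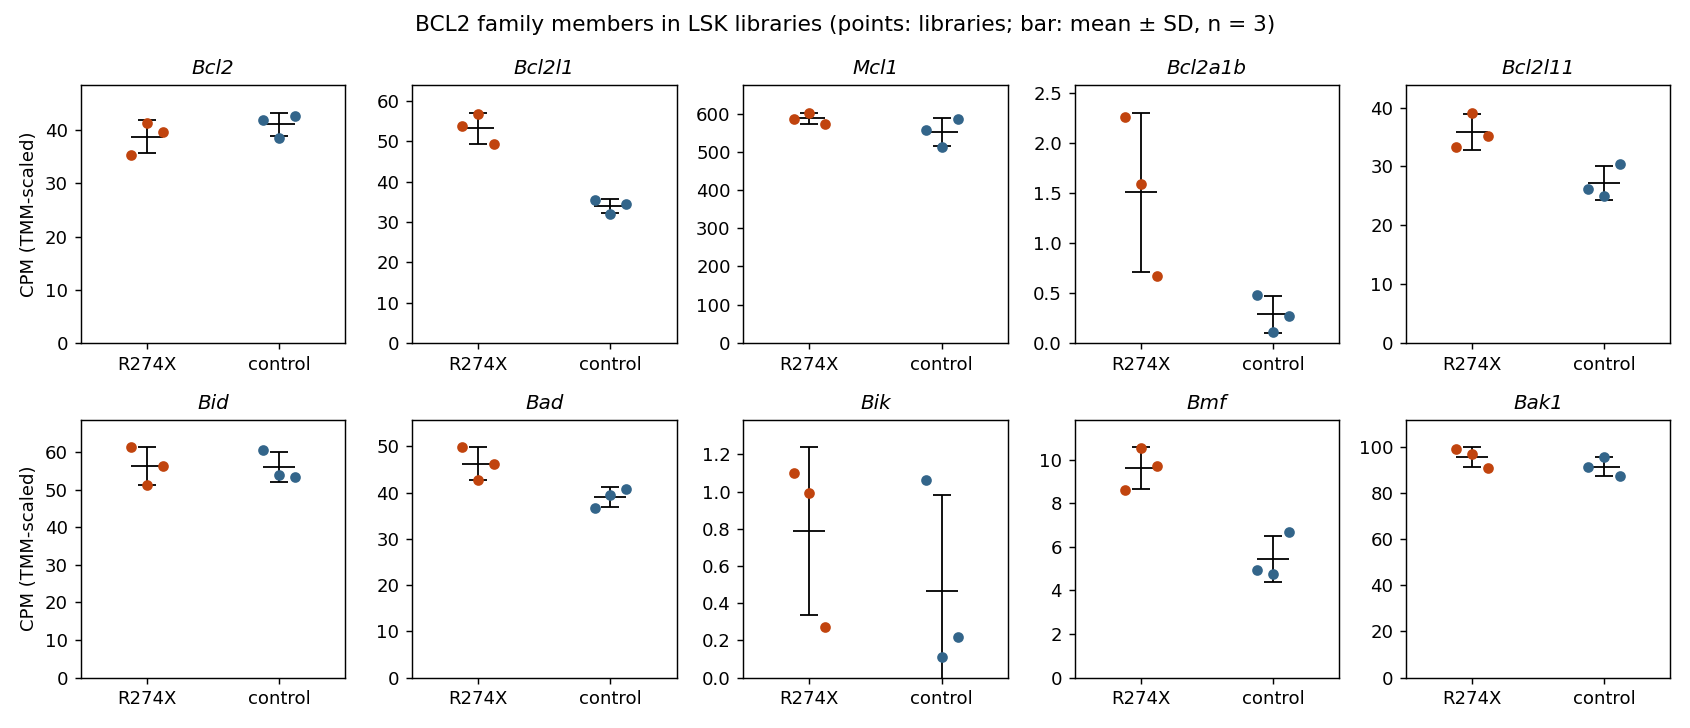
CPM of each member (vertical axes, each starting at 0) in the 3 R274X libraries and the 3 controls, with the mean and SD as a bar, cut at 0 for Bik in controls. The R274X points lie above the controls for Bcl2l1, Bcl2a1b, Bcl2l11, Bad and Bmf, and the groups overlap for the other 5 genes.

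Bcl2l1 gave the clearest change among the members. It encodes BCL-xL, a pro-survival protein anchored in the mitochondrial outer membrane, and lies at chromosome 2, 152780668 to 152831728 (GRCm38, minus strand). Its level was 53.8, 56.9 and 49.2 CPM in R274X libraries, against 35.4, 32.0 and 34.4 CPM in controls. Every R274X library was above every control, and the lowest of them exceeded the highest control by more than the spread within either group. The means were 53.3 ± 3.85 CPM in R274X libraries and 33.9 ± 1.76 CPM in controls (SD, n = 3 each), from 736 to 860 counts and 597 to 669 counts. The fold change was 1.57 (95% interval 1.38 to 1.79; log2 fold change 0.65, SE 0.0886, edgeR adjusted p = 0.000619). The exact two-sided permutation p was 0.1, the smallest that 3 against 3 libraries allow. Among the R274X libraries, library 3 had the lowest Bcl2l1 level (49.2 CPM, against 53.8 CPM in library 1). It also had the lowest B cell marker sum (1506.5 CPM, against 3008.3 CPM in library 1). Among controls, Bcl2l1 was highest in library 1 (35.4 CPM), whereas the B cell marker sum was highest in library 3 (846.3 CPM, against 552.4 CPM in library 1).

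Bcl2, the founding member of the family and a close relative of BCL-xL in function, did not change in the same way. It had 35.4, 41.3 and 39.6 CPM in R274X libraries and 42.0, 38.6 and 42.7 CPM in controls. The groups overlapped, and the fold change was 0.943 with a 95% interval of 0.822 to 1.08 (edgeR adjusted p = 0.568). In each library the ratio of Bcl2l1 to Bcl2 per kilobase of exon was 3.04, 2.75 and 2.48 in R274X libraries, against 1.68, 1.66 and 1.61 in controls. That ratio does not depend on scaling between libraries, and its groups did not overlap. Bcl2l1 alone already separated the groups, and Bcl2 was the only member with a negative log2 fold change. The ratio was formed with earlier results known, so it is no separate support for the change in Bcl2l1 and carries no test.

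Mcl1 was by far the most abundant member in both groups. Its product is a short-lived pro-survival protein. It measured 585.7, 602.5 and 573.5 CPM in R274X libraries, against 556.5, 513.5 and 585.3 CPM in controls. Control 3 reached the R274X range, and the fold change of 1.06 (95% interval 0.949 to 1.19) did not pass (edgeR adjusted p = 0.456). Its direction depended on scaling: after quantile normalization of the deposited FPKM the log2 fold change was -0.28 (limma adjusted p = 0.0466), where the median over all genes was -0.07.

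Bcl2a1b, which encodes a copy of the small pro-survival protein A1 of myeloid and lymphoid cells, was near the lower end of detection. It had 35, 24 and 10 counts in R274X libraries, against 9, 2 and 5 counts in controls. These gave 2.26, 1.59 and 0.67 CPM in R274X libraries and 0.48, 0.11 and 0.27 CPM in controls. The lowest R274X library was only slightly above the highest control. The fold change was 5.19 with a wide 95% interval of 2.09 to 12.9 (edgeR adjusted p = 0.0186). It lost the threshold without R274X 1 (edgeR adjusted p = 0.119), R274X 2 (0.0677), control 2 (0.0861) or control 3 (0.0573), with log2 fold changes of 1.96, 2.34, 1.97 and 2.32. Its order across the R274X libraries was that of the macrophage markers, whose sums were 2597.4, 1983.0 and 1255.8 CPM in libraries 1, 2 and 3. In controls the orders differed: the macrophage sums were 519.2, 292.5 and 586.6 CPM, highest in control 3, and Bcl2a1b was highest in control 1. At these counts the order is uncertain, and the part of macrophages was not tested.

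Summed with its copies, A1 RNA had more counts and was also higher in R274X libraries. The sum contains Bcl2a1b and Bcl2a1a, so neither it nor its p is separate support for the change in Bcl2a1b. Bcl2a1a, Bcl2a1b and Bcl2a1d together had 111, 88 and 75 counts in R274X libraries, against 60, 33 and 41 counts in controls. The sums were 6.01 ± 1.09 CPM in R274X libraries and 2.38 ± 0.72 CPM in controls (SD, n = 3 each), a ratio of 2.52 (p = 0.1 in an exact two-sided permutation test, the lowest reachable). Bcl2a1a had 23, 11 and 11 counts in R274X libraries, against 2, 8 and 3 counts in controls. Like Bcl2a1b it could pass the filter on low counts only through the R274X libraries, so its call is no support for the direction of the sum. Its fold change was 4.15 (edgeR adjusted p = 0.0391), and it lost the threshold without R274X 1 (0.213), R274X 2 (0.0785), control 1 (0.143) or control 3 (0.105). Bcl2a1d had a fold change of 1.88 and did not pass with all libraries (edgeR adjusted p = 0.0598), but did without control 1 (0.0423).

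Among the BH3-only genes, Bmf and Bcl2l11 rose. Bmf encodes a pro-death protein that is known to associate with motor complexes of the cytoskeleton. It had 8.60, 10.5 and 9.70 CPM in R274X libraries, against 4.92, 4.77 and 6.67 CPM in controls. The groups did not overlap, and control 3 was the highest of the controls. The means were 9.61 ± 0.96 CPM in R274X libraries and 5.46 ± 1.06 CPM in controls (SD, n = 3 each), from 133 to 159 counts and 89 to 124 counts. The fold change was 1.76 (95% interval 1.32 to 2.34, edgeR adjusted p = 0.0123). It missed the threshold without R274X 2 (edgeR adjusted p = 0.0592), control 1 (0.0575) or control 2 (0.0662), with log2 fold changes of 0.75, 0.73 and 0.71.

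Bcl2l11 encodes BIM, a BH3-only protein that binds all the main pro-survival members and sets the size of many blood cell populations. Its level was 33.2, 39.15 and 35.1 CPM in R274X libraries, against 26.1, 25.0 and 30.4 CPM in controls. The groups were separate but close, with control 3 at 30.4 CPM and R274X 1 at 33.2 CPM. The fold change of 1.32 (95% interval 1.13 to 1.55; log2 fold change 0.40, edgeR adjusted p = 0.0221) was smaller than that of Bmf. It missed the threshold without R274X 2 (edgeR adjusted p = 0.103), control 1 (0.0931) or control 2 (0.113), with log2 fold changes of 0.33, 0.36 and 0.33. In limma on log2(FPKM + 1) the adjusted p was 0.0693.

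Bad, Bid and Bik did not pass. Bad, whose product is held inactive by phosphorylation downstream of growth factors, had 49.8, 42.7 and 46.2 CPM in R274X libraries, against 36.7, 39.5 and 40.9 CPM in controls. These groups did not overlap, but the fold change of 1.18 (95% interval 1.04 to 1.36) had an edgeR adjusted p of 0.0771. Bid, which links death receptors to mitochondria once caspase-8 has cleaved it, had 61.25, 51.2 and 56.2 CPM in R274X libraries and 60.5, 53.9 and 53.3 CPM in controls. Its fold change was 1.01 with an interval of 0.878 to 1.15 (edgeR adjusted p = 0.964), and its sign changed with the setting. Bik had 4 to 17 counts in R274X libraries and 2 to 20 counts in controls, and the 95% interval of its fold change ran from 0.517 to 5.56 (edgeR adjusted p = 0.544). Its log2 fold change of 0.76 became 2.22 without control 1, which held 20 of its counts (edgeR adjusted p = 0.12).

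Bak1 encodes BAK, an effector that opens the mitochondrial outer membrane. It had 98.95, 96.75 and 90.6 CPM in R274X libraries and 91.1, 95.6 and 87.3 CPM in controls. The groups overlapped, and the fold change of 1.05 (95% interval 0.938 to 1.17) did not pass (edgeR adjusted p = 0.584). Under quantile normalization of FPKM the log2 fold change was -0.14 (limma adjusted p = 0.216). Annotated genes on the opposite strand overlap Bad (Gpr137), Bid (Bcl2l13) and Bak1 (Ggnbp1), and since strand-specific counting is not stated in the sources used here, reads of each pair cannot be told apart. None of these 3 neighbours passed the threshold (edgeR adjusted p from 0.256 to 0.694).

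Gene length moved with genotype over all genes, and its part in the calls was not tested. Tested genes of the length class of Bcl2l11 (7033 to 9314 bases of exon) had a median log2 fold change of -0.10, and 5.97% of them rose. For the classes of Bmf and Bcl2l1 the medians were -0.05 and -0.03, with 7.67% and 9.39% rising. The class of Bcl2a1b, the shortest genes (11 to 1041 bases), had a median of 0.20 and 11.6% rising.

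The other BCL2 family genes, a further list of 16, were higher in R274X libraries where they passed. Of 12 tested, 4 rose, none fell and 8 did not pass, where 10.1% of all tested genes rose and 7.89% fell. One of the 4, Bcl2a1a, could pass the filter on low counts only through the R274X libraries, and its reads may be confused with those of Bcl2a1b. Of the 12, 7 had a positive log2 fold change. In 8 the groups did not overlap, 6 of them with R274X higher, against 37.2% and 18.9% of all tested genes. Their median log2 fold change was 0.15, against -0.02 over all tested genes. Bcl2l10, Bcl2a1c and Hrk had no reads in any library and Bcl2l15 was below the filter. Pmaip1, which encodes the BH3-only protein NOXA that binds MCL1, had 23.15, 22.15 and 26.6 CPM in R274X libraries, against 16.7, 12.5 and 15.6 CPM in controls. This was a fold change of 1.61 (95% interval 1.32 to 1.96, edgeR adjusted p = 0.00452), and it passed without each library in turn. Bax, the other widely expressed effector gene, had 86.6, 80.35 and 82.75 CPM in R274X libraries, against 61.1, 67.2 and 69.1 CPM in controls. Its fold change of 1.26 (95% interval 1.13 to 1.42, edgeR adjusted p = 0.0101) lost the threshold without control 1 (0.0685), and the log2 fold change was 0.10 under quantile normalization of FPKM (limma adjusted p = 0.377).

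Bok, a BAX-like gene, had the largest change of the list after Bcl2a1a, at 34.5, 38.95 and 19.4 CPM in R274X libraries, against 8.15, 9.97 and 14.1 CPM in controls. The fold change was 2.88 (95% interval 1.55 to 5.35, edgeR adjusted p = 0.0425). R274X 3 and control 3 lay closest to each other, and these were also the R274X library with the lowest and the control with the highest B cell marker sum. Bok lost the threshold without R274X 1 (edgeR adjusted p = 0.14), R274X 2 (0.0787), control 1 (0.111) or control 2 (0.141). Bbc3, which encodes the p53-induced BH3-only protein PUMA, did not pass (27.55, 23.3 and 23.1 CPM in R274X libraries, 23.3, 24.8 and 31.8 CPM in controls; edgeR adjusted p = 0.6). The number of genes in this list that rose was 2 without R274X 1, R274X 2 or control 1, 3 without control 2 or control 3, and 4 without R274X 3.

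**Figure D2:**
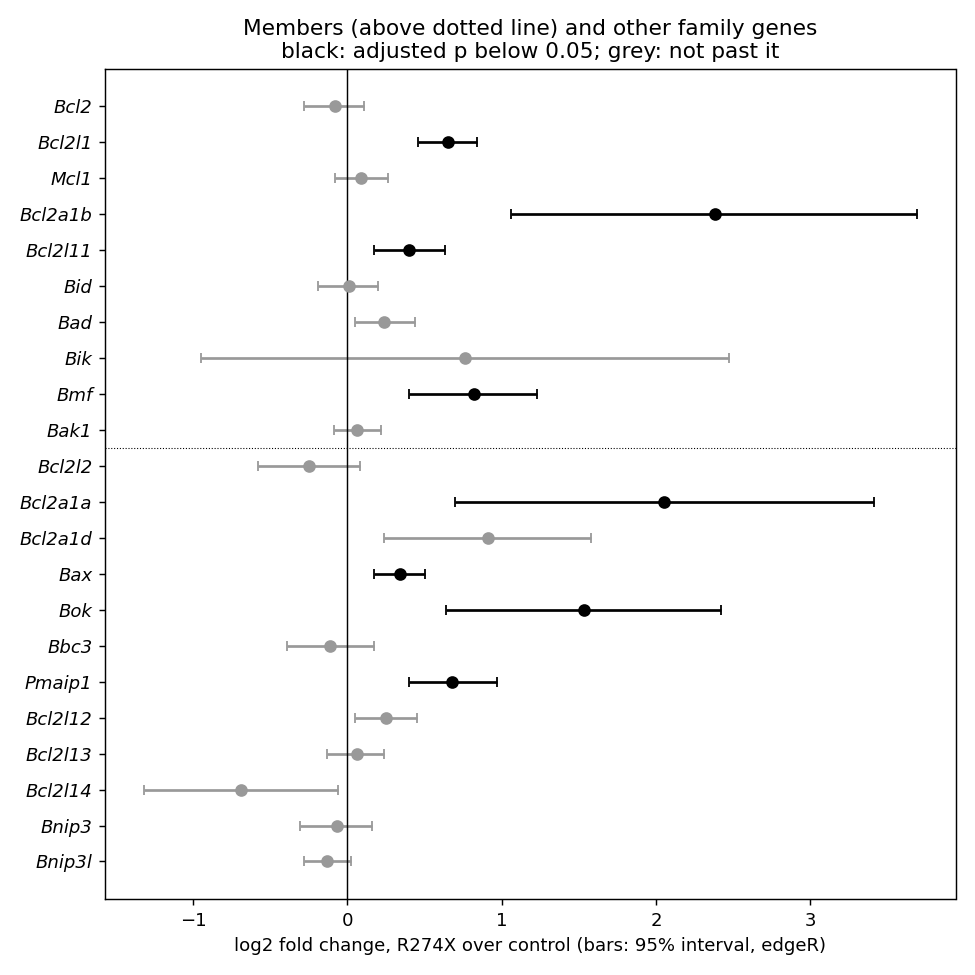
Log2 fold change of R274X over control (horizontal axis) with its 95% interval from edgeR, for the 10 members above the dotted line and the 12 other tested family genes below it. Black marks the 4 members and 4 other genes past the threshold, all to the right of 0; the wide intervals belong to the low-count genes Bcl2a1b, Bcl2a1a and Bik.

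The marker sums are set beside 4 family genes library by library. R274X 3 had the lowest B cell and macrophage sums of its group and also the lowest Bcl2a1b, Bok and Bcl2l1. Control 3 had the highest sums of its group and also the highest Bok and Bmf. Other orders differed from those of the sums. R274X 1 had the highest sums of its group but the lowest Bmf (8.60 CPM), and Bok and Bcl2l1 were highest in R274X 2. Among controls, Bcl2a1b (0.48 CPM) and Bcl2l1 (35.4 CPM) were highest in control 1. The part of the marked cell types in any of these genes was not tested.

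**Figure D3:**
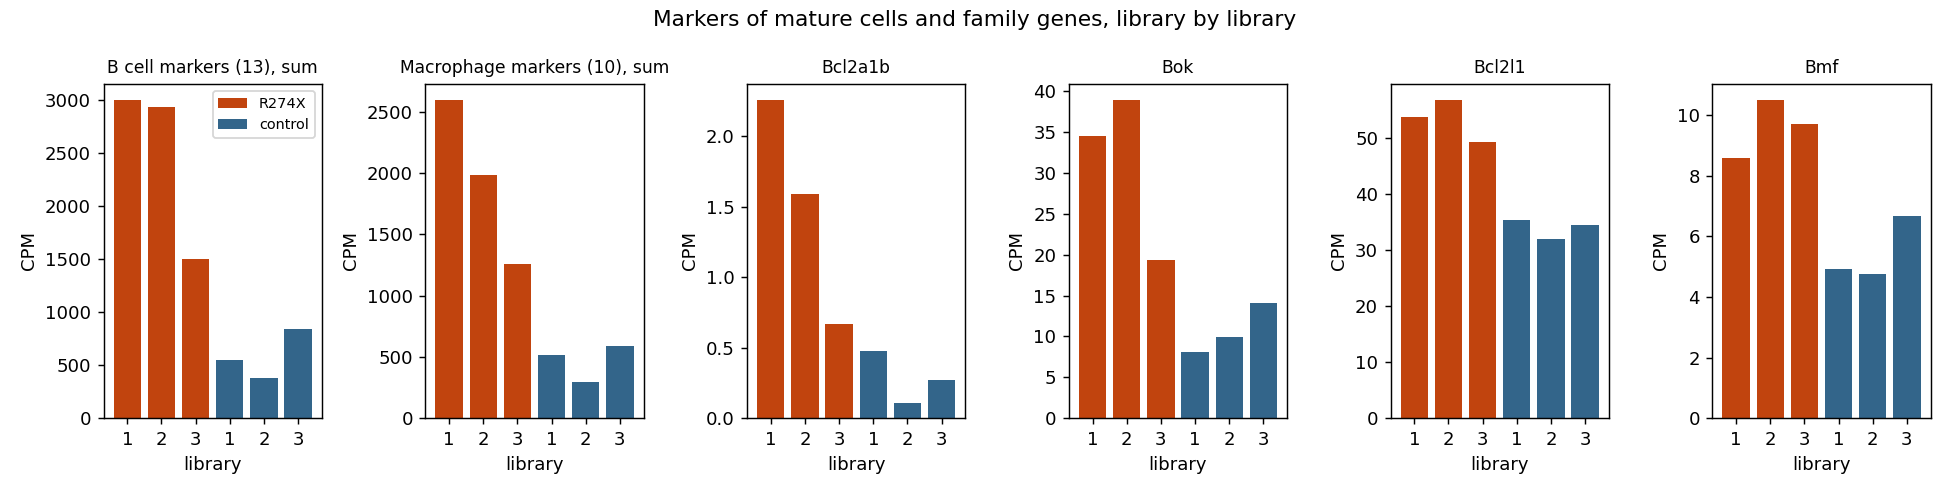
CPM in each library (bars from 0; R274X libraries 1 to 3, then controls 1 to 3) for the summed B cell and macrophage markers and for Bcl2a1b, Bok, Bcl2l1 and Bmf. R274X 3 is the lowest of its group for both sums, Bcl2a1b, Bok and Bcl2l1 (49.2 CPM). Control 3 is the highest of its group for both sums, Bok and Bmf (6.67 CPM). Bmf is lowest among R274X libraries in R274X 1, and Bcl2a1b and Bcl2l1 are highest among controls in control 1.

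Set per kilobase of exon, which allows levels of different genes to be compared, the order of the members was nearly the same in both groups. Mcl1 came first, at 172 ± 4.26 CPM per kilobase in R274X libraries and 161 ± 10.6 in controls, followed by Bak1 at 39.7 ± 1.79 and 37.9 ± 1.72 (SD, n = 3 each). Bad (18.1 in R274X libraries, 15.3 in controls) and Bid (15.8 and 15.7) came next and overlapped each other in both groups. Bcl2l1 followed at 11.6 ± 0.838 CPM per kilobase in R274X libraries and 7.40 ± 0.383 in controls. Bcl2l11 and Bcl2 overlapped in R274X libraries, at 4.46 and 4.23 CPM per kilobase, whereas in controls Bcl2l11 at 3.38 lay below Bcl2 at 4.49 without overlap. Bcl2a1b and Bmf overlapped in R274X libraries (1.84 and 1.83) and did not in controls (0.348 and 1.04). Bik was lowest in both groups (0.494 and 0.289), where it overlapped Bcl2a1b in controls.

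The deposited FPKM values gave the same picture for 9 of the members. For Bad the FPKM was higher, at 23.0 ± 1.74 in R274X libraries and 19.3 ± 1.07 in controls (SD, n = 3 each), a value that implies a gene length of 2007 bases in place of the 2558 bases of merged exon. By FPKM Bcl2l1 averaged 11.6 ± 0.821 in R274X libraries and 7.34 ± 0.412 in controls.

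Over the 10 members alone, the summed level of the pro-survival members relative to the pro-death members did not separate the groups. This depends on the member list, which leaves out other family genes on both sides. Left out of the pro-death side were Bax (52.8 CPM per kilobase in R274X libraries, 41.8 in controls), Bok (16.8 and 5.84), Pmaip1 (8.78 and 5.46) and Bbc3 (11.6 and 12.5). Bcl2l2 (2.98 and 3.54) was among those left out of the pro-survival side. A ratio with these genes was not computed. The ratio of the members per kilobase was 2.25, 2.48 and 2.36 in R274X libraries and 2.37, 2.17 and 2.54 in controls. The means were 2.36 ± 0.113 and 2.36 ± 0.183 (SD, n = 3 each). Mcl1 held 90.3% to 91.4% of the pro-survival sum in R274X libraries and 92.7% to 93.2% in controls, so this ratio is chiefly that of Mcl1. With Mcl1 left out the ratio was 0.218, 0.239 and 0.204 in R274X libraries, against 0.174, 0.152 and 0.172 in controls, and the groups did not overlap. Both sides had higher sums in R274X libraries: the pro-death sum was 77.9 to 84.3 CPM per kilobase in R274X libraries and 72.5 to 74.4 in controls, and the pro-survival sum was 183.7 to 195.1 and 161.5 to 183.7. The sum of the 5 BH3-only genes was 40.7 ± 2.31 CPM per kilobase in R274X libraries and 35.7 ± 0.88 in controls (SD, n = 3 each). These are sums of RNA over genes chosen with earlier results known, so they carry no test.

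**Figure D4:**
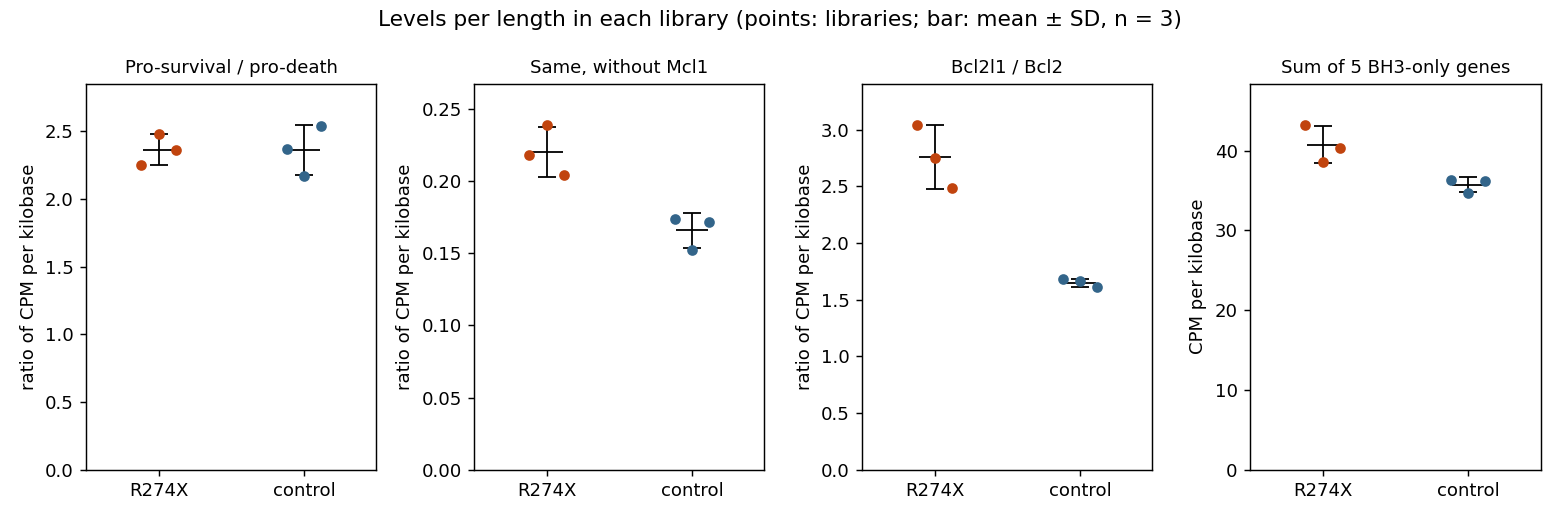
Per library, the ratio of summed pro-survival to summed pro-death levels, the same without Mcl1, the ratio of Bcl2l1 to Bcl2, and the BH3-only sum (all from CPM per kilobase; axes start at 0; bars are mean and SD, n = 3). The first ratio overlaps between the groups, and the other 3 measures do not.

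Downstream of the family, in a list of 20 genes for the apoptosome, caspases and their inhibitors, 1 rose, 2 fell and 17 did not pass, with a median log2 fold change of -0.02. That count is near the background, in which 17.9% of all tested genes passed. Cycs, which encodes the cytochrome c released by the effectors, had a fold change of 1.24 (edgeR adjusted p = 0.0145). Casp8, the initiator caspase that cleaves BID, fell by 0.25 on the log2 scale (edgeR adjusted p = 0.0343), and Birc6, a large inhibitor of apoptosis, fell by 0.32 (edgeR adjusted p = 0.0324). Endog, the mitochondrial endonuclease G, stood at 0.44 (edgeR adjusted p = 0.0641). No gene of this list passed without control 1 (edgeR adjusted p of 0.0636 for Cycs, 0.0966 for Casp8 and 0.102 for Birc6) or without R274X 1 (0.0615, 0.0582 and 0.144). Cycs also lost the threshold without control 2 (0.0911), Casp8 without R274X 2 (0.13) or control 3 (0.0896), and Birc6 without R274X 2 (0.0785) or control 2 (0.0982). Without R274X 3, 2 genes of the list rose and 2 fell. Under quantile normalization of FPKM, Cycs had a log2 fold change of 0.10 (limma adjusted p = 0.379). Among 11 death receptor and necroptosis genes 1 fell, none rose and 10 did not pass (median -0.17), against 7.89% of all tested genes that fell and 10.1% that rose. That gene was Tnfrsf1a, the TNF receptor, at 84.0 ± 9.01 CPM in R274X libraries and 114 ± 13.7 CPM in controls (SD, n = 3 each, edgeR adjusted p = 0.014). Its call was lost without R274X 1 (0.0788), R274X 2 (0.0634), control 1 (0.0608) or control 2 (0.0727), and without R274X 3 the number of genes in the list that fell was 3. Fadd, Mlkl and Tnfrsf10b had log2 fold changes of -0.37, -0.28 and -0.61 and did not pass (edgeR adjusted p of 0.0765, 0.0682 and 0.179).

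Of 13 tested genes known to control the members, 7 fell, 2 rose and 4 did not pass, where 7.89% of all tested genes fell and 10.1% rose. Their median log2 fold change was -0.25, against -0.02 over all tested genes. Foxo3, a forkhead factor that activates Bcl2l11, had 63.9, 75.2 and 74.4 CPM in R274X libraries, against 94.9, 105.9 and 103.6 CPM in controls. It fell by 0.51 on the log2 scale (edgeR adjusted p = 0.00168) and passed without each library in turn. Foxo1, its relative with a main role in lymphoid cells, had 34.3, 34.3 and 20.3 CPM in R274X libraries, against 12.6, 12.8 and 18.3 CPM in controls (edgeR adjusted p = 0.0363). Like Bok, it was lowest among R274X libraries in library 3 and highest among controls in library 3. Stat3 fell by 0.53 and Stat5b, a cytokine-activated factor that induces Bcl2l1, by 0.30 (edgeR adjusted p of 0.00151 and 0.0199). Huwe1, a ubiquitin ligase of MCL1, fell by 0.36 (edgeR adjusted p = 0.00475). Stat3, Foxo3 and Huwe1 passed without each library in turn, and Stat5b lost the threshold without R274X 1 (0.0637), R274X 2 (0.0516), control 1 (0.0719) or control 2 (0.0703). The number of regulators that fell was 3 without R274X 1, R274X 2, control 1 or control 2, 6 without control 3 and 7 without R274X 3. The number that rose was 0 without the first 4 of these, 1 without control 3 and 2 without R274X 3.

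FOXO and STAT factors are known to activate Bcl2l11 and Bcl2l1, and the 250 bases before the outermost annotated start of the 3 best-measured members that rose (each also has inner starts) were read for their motifs. They are shown from RefSeq (GRCm38.p6, 5′ to 3′ on the gene's strand), with matches to GTAAACA (FOXO), TTCNNNGAA (STAT) and GGGCGG (GC box) in capitals, searched on both strands with overlaps allowed.
Bcl2l11, chr2:128125788-128126037, plus strand: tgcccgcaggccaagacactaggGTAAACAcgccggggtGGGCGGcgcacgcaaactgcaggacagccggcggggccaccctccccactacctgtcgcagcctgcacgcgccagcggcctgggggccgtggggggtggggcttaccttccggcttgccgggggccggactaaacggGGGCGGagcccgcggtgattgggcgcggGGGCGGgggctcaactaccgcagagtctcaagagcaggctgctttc
Bmf, chr2:118549687-118549936, minus strand: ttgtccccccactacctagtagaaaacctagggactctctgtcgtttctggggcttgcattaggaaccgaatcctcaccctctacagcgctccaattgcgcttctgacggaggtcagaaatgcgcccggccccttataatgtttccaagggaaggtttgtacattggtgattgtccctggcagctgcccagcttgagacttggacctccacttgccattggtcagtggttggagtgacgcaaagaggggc
Bcl2l1, chr2:152831729-152831978, minus strand: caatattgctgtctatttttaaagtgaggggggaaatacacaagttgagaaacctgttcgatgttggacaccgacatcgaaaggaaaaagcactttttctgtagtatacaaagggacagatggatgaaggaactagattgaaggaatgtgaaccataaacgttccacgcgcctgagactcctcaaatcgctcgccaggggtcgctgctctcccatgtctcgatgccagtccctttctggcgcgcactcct
Bcl2l11 held 1 FOXO match, starting 227 bases before the transcription start, and 3 GC boxes. A second RefSeq start of Bcl2l11 (window chr2:128127325-128127574) held no FOXO match and 2 GC boxes. The windows of Bmf and Bcl2l1, those of their inner starts included, held no match to these letters, which says nothing about binding elsewhere. Of 32851 promoter windows of this length, 3.17% held the FOXO letters, 7.02% the STAT letters and 32.7% the GC box.

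The 3 genes whose level across the 6 libraries was most like that of Bcl2l1 were Atp1b1, Ggh and Unc93b1, with Pearson r of log2 CPM of 0.9996, 0.9986 and 0.9967 among 8960 protein-coding genes of at least 10 CPM. Such values come easily where 2 groups differ: 434 genes had r above 0.95. For Bcl2, which did not separate the groups, the 3 were Spred1 (0.9858), Ddx11 (0.9769) and Rhot1 (0.9697), and 7 genes had r above 0.95. The points are libraries of 2 genotypes, and the values are a description.

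**Figure D5:**
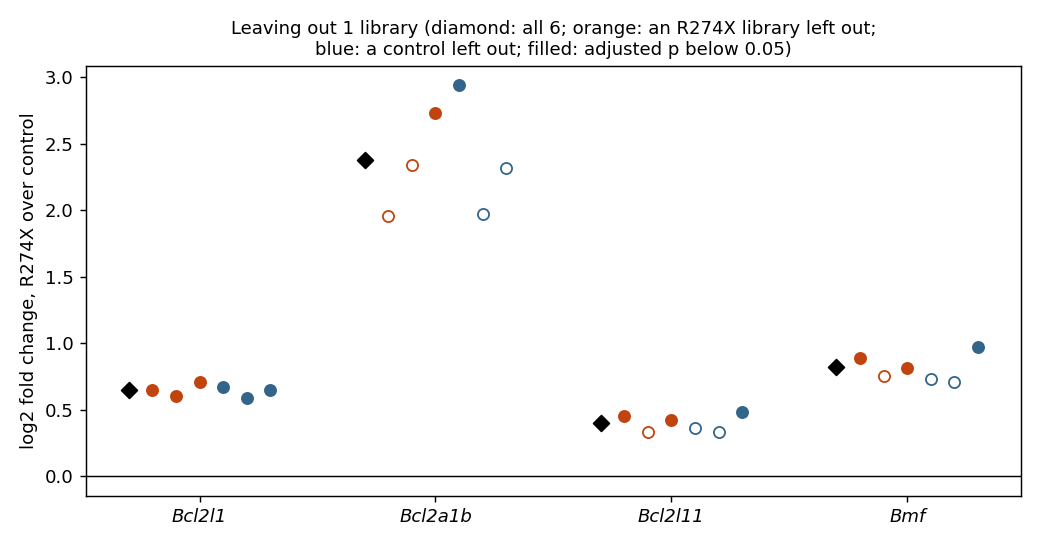
Log2 fold change of R274X over control (vertical axis) for the 4 members that rose, with all 6 libraries (diamond) and with 1 library left out (circles in the order R274X 1 to 3, then control 1 to 3; filled where the edgeR adjusted p is below 0.05). Bcl2l1 stays between 0.59 and 0.71 and is filled throughout, while Bcl2a1b ranges from 1.96 to 2.94 and the other 2 genes lose the threshold without 3 of the libraries.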

How the data were processed

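The files hold 6 libraries, 3 for each genotype in the labels. The authors deposited, per the file headers, whole-number read counts and FPKM values for 54532 Ensembl genes. Per the submitters' processing notes, Bowtie and the build mm8 were used. Neither counting tool, annotation nor strandedness is given in the sources used here. Identifiers matched GENCODE release M21 (GRCm38) for 54409 genes, and the lengths implied by the deposited FPKM equalled its merged exons for 94.4% to 94.6% of genes with over 200 counts, so coordinates are those of GRCm38.

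Differences in the deposited counts were fitted in edgeR 4.0.16 under R 4.3.3, by its quasi-likelihood method (TMM scaling, minimum count 10, robust option, Benjamini-Hochberg adjustment over all 14608 tested genes, threshold 0.05). Intervals of fold changes are 95% intervals from the same fit. Exact permutation tests used SciPy 1.17.1. Alternatives were DESeq2 1.42.0, limma-voom (limma 3.58.1), RLE and upper-quartile scaling, other filters, removal of immunoglobulin genes, omission of single libraries, and limma with log2-transformed FPKM as deposited, plus 1 or 0.1, also without the filter on a mean FPKM of 0.5 and after quantile normalization. On simulated counts of 14298 genes for this comparison, 90.2% of 92 genes changed 2-fold and 35.2% of 108 genes changed 1.5-fold were recovered. Among the unchanged genes 15 were called. Changed genes had a mean of at least 50 counts in controls, so these shares do not cover low-count genes such as Bcl2a1b, Bcl2a1a and Bik. The simulation changed 200 genes, far fewer than the 2621 that passed in the data. Replicate numbers are names given in accession order. Named genes were the members, up to 4 genes with the smallest p of each pathway list, and the Bcl2a1 copies, Bax, Bbc3, Pmaip1 and Phf6. The 3 genes most like Bcl2l1 and Bcl2 were added by Pearson r. Kit, Ly6a, Foxo1, Cd72, Fcer2a, Cd79a, Ebf1, Vpreb1, Igll1, Jchain and the T and NK cell markers were named after their values were seen. So were Hbb-bs, Hba-a1, Alas2 and Car2. The members, lists and tests were chosen with earlier results of these data known. Intervals cover the spread between libraries, and the reads carry no molecular identifiers.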

Additional observations from a re-analysis of the deposited data

How the results depend on the processing

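No paired analysis was possible because the labels give no replicate numbers shared by the groups. Of the members, Bcl2l1 kept its direction and its side of the threshold in all 18 alternatives (0.54 to 0.71 on the log2 scale), and Bcl2, Bad and Bik did so in those that gave a value. With limma on log2(FPKM + 1), log2(FPKM + 0.1), log2(FPKM + 1) without a filter and quantile-normalized FPKM, Bcl2a1b had 1.03, 2.11, 1.03 and 0.97 and Bcl2l11 0.33, 0.40, 0.33 and 0.31, none past the threshold; Bmf had 0.48 without the filter. The count of members that rose was then 2, 2, 1 and 2, against 4. The counts over all genes were 967, 435 and 663 higher in the last 3 of these settings and 586, 565 and 225 lower in the first 3. Quantile normalization turned Mcl1 (-0.28), Bak1 (-0.14) and Bid (-0.08); Bid was also -0.04 with upper-quartile scaling, -0.01 without a count filter and -0.0035 at a mean count of at least 50. Leaving out 1 library gave 1.96 to 2.94 for Bcl2a1b, 0.33 to 0.48 for Bcl2l11, 0.71 to 0.97 for Bmf, -0.06 to 0.07 for Bid, -0.21 to 0.02 for Bbc3 (0.02 without control 3), 1 to 4 members that rose, and 682 to 1882 genes higher and 507 to 1413 lower. The pro-survival to pro-death ratio was 2.22 in R274X libraries and 2.23 in controls by FPKM, 0.22 and 0.166 without Mcl1, and 2.30 to 2.42 and 2.27 to 2.45 with 1 library of the group left out. Removing samples leaves fewer libraries to estimate the spread; other causes were not tested. Depth limits Bcl2a1b, Bcl2a1a and Bik.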
